A study of Equus caballus with 26 samples.

Results

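Fatty acid oxidation genes were read in whole blood of endurance horses before and after a 160 km ride. They were 36 genes named from textbook knowledge of the pathway, not by their values, among 24415 gene names on a custom equine Agilent array. Blood was drawn at rest before the ride (T0) and right after it (T1) into PAXgene tubes, which fix the RNA of all blood cells. All animals were Arabian or half-breed Arabian horses, and the methods give an age of 10 ± 2 years (SEM) over 61 horses on 3 rides. The experimental set, called training in the labels, held 3 geldings (horses 2, 32 and 41), each on 1 array at T0 and 1 at T1. The validation set held 7 horses at T0 (3 females and 4 geldings) and 13 other horses at T1 (3 females and 10 geldings), with 1 array a horse. A change in the validation set was therefore a difference between horses, and horses that did not ride were not part of the groups. Per the methods, most horses of the whole validation cohort drawn at T0 later failed a veterinary check on the ride, whereas all those drawn at T1 finished it. Time and finishing status therefore cannot be told apart in this set, and the labels used here do not give the status of each horse. In each set the comparison asked which of the 36 genes stood at another level in blood after the ride.

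Fatty acids are a main fuel of long, steady exercise. A long-chain fatty acid is first joined to coenzyme A by acyl-CoA synthetases (ACSL), then passed to carnitine by the CPT1 enzymes, carried over the inner mitochondrial membrane by SLC25A20 and handed back to coenzyme A by CPT2. In the mitochondrion a repeating series of dehydrogenase, hydratase, dehydrogenase and thiolase steps shortens the chain, and electrons leave through the electron-transfer flavoproteins. Peroxisomes run a parallel route for very long chains. The PPAR nuclear receptors sense fatty acids and switch on many of these genes, among them PDK4, the kinase that holds back glucose oxidation by blocking pyruvate dehydrogenase. In blood these genes are read from blood cells, not from working muscle.

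Every gene had a probe, and 33 of the 36 probes used were placed on the genome in the array's own coordinates, whose header names the build EquCab1. Of these, 7 lay on chrUn, the pool of unplaced sequence, and 9 spanned more genome than their own length. The coordinates of the array carried no annotation of exon, intron or UTR. The probes of the members on which the results below turn are given first, since these stretches are what was measured. The probes of ACSL1, at chr27:24611122-24611181 and chr27:24611062-24611121 on the plus strand, lie end to end, and the capitals in the first mark the stop codon with which it ends.
ACSL1, first probe: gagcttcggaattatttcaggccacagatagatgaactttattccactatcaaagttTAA
ACSL1, second probe: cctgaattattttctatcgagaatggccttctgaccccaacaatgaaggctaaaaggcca
The probe of ACSL4 lay at chrUn:25462975-25463034, and the capitals mark the 40 bases that it shares with the gene's second probe.
ACSL4: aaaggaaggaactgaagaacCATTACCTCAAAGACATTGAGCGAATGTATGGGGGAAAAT
The probe of ECHS1 covered chrUn:300311871-300312727 on the minus strand, a span of 857 bases for a probe of 60, and a second probe lay at chrUn:300312688-300312747. The capitals mark the 40 bases in common.
ECHS1, first probe: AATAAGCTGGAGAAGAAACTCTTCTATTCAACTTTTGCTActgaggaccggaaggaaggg
ECHS1, second probe: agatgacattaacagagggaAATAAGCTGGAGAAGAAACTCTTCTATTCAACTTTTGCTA
The probe of ECI1 lay at chrUn:74029346-74029405 on the minus strand and also ends in a stop codon, in capitals.
ECI1: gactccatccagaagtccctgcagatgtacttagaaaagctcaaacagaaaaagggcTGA
CPT1A had 1 probe, at chr12:18403898-18403957 on the minus strand.

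One library stood apart from the others of its label. The library labelled T0 of horse 47 lay inside the T1 range in 14 of the 14 members that passed the test in the validation set, and in 11 of them it lay beyond all 6 other T0 horses on the side of T1. The first count is a loose one, since for ACADL, as an example, every T0 horse lay inside the T1 range. Neither count was taken over all gene names. Values of the changed members without horse 47 are given with the results. The blood itself also differed between the times. The mean level of 14 neutrophil genes ran from 1.86 to 3.85 at T0 and from 3.65 to 5.12 at T1 in the validation set, and 10 of the 14 rose. The mean level of 12 T cell genes ran from -0.06 to 1.20 at T0 and from -1.13 to 0.24 at T1, and all 12 fell. In addition 5 of 8 monocyte genes rose, and 7 of 9 B cell genes, 5 of 7 NK cell genes and 5 of 6 eosinophil and basophil genes fell, while 1 NK cell gene rose. None of the 6 platelet genes passed the test. The mean level of 3 erythroid genes ran from 0.35 to 3.06 at T0 and from 1.35 to 4.35 at T1, and 1 of the 3 rose. Of 10 muscle and liver genes 4 were measured well enough to be tested. APOA1 rose and 3 did not pass the test, with log2 changes over the 4 from -0.89 to 1.8. The muscle genes MB, MYH1, MYH2 and TNNT3 and the liver genes ALB and TTR were at or near background. The list also held the muscle genes CKM, MYH7 and ACTA1. Horse 47 had the highest neutrophil level (3.85) and the lowest T cell level (-0.06) of the T0 horses, and its eosinophil and basophil level (-2.47) was the lowest of the T0 horses but above every T1 horse. In whole blood, fewer cells of a type and less RNA per cell cannot be told apart, and the part of these shifts in the results below was not tested.

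Levels are log2 signals minus the 75th percentile of the same array, so 0 is the level that 75% of the probes do not reach, and a difference of 1 is a doubling. A gene passed the test at an adjusted p under 0.05 (limma, Benjamini-Hochberg over all gene names tested). In the experimental set 32 of the 36 members were bright enough to be tested (ACSL6, SLC22A5, CPT1B and PDK4 were not). ACSL4 and CPT1A rose and ECHS1 fell, against 6.38% of all 17482 gene names that rose and 4.18% that fell. Rises made up 60.4% of the calls over all genes, and 48.2% under normexp and quantile normalization. In the validation set 34 members were tested (ACSL6 and SLC22A5 were not), 6 rose and 8 fell, where 18.8% of 18805 gene names rose and 22.4% fell. These shares are near those of all genes, so the counts alone are no result about the members as a whole. The median log2 fold change of the members tested was -0.35 in the experimental set (0.026 over all genes) and -0.25 in the validation set (-0.059 over all genes). By step of the pathway, of the 9 genes of activation and carnitine transfer tested in the validation set 4 rose and 1 fell, and of the 18 genes of the mitochondrial spiral and its electron carriers 0 rose and 6 fell. The difference between the steps was not tested.

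**Figure D1:**
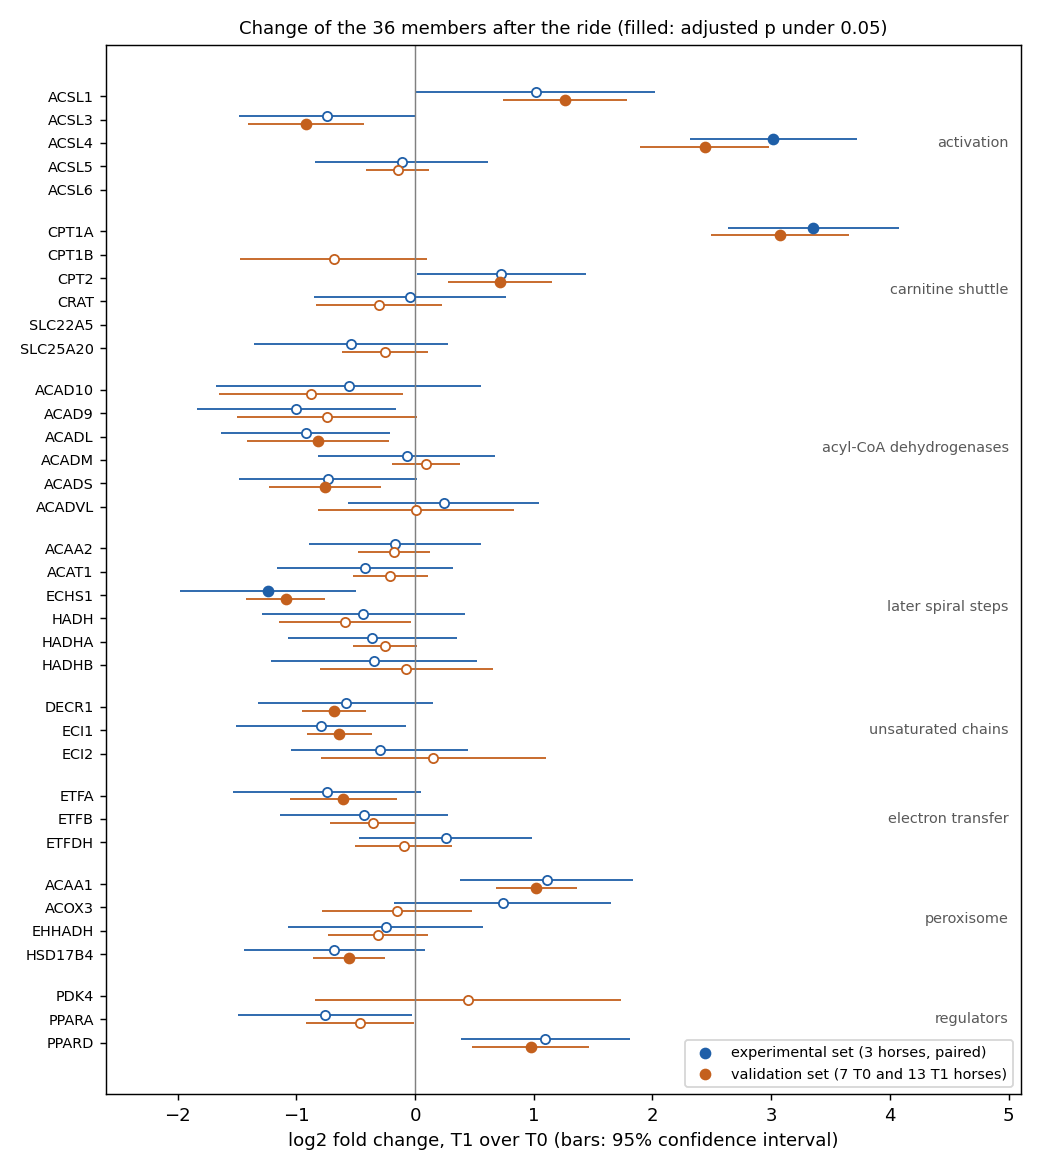
Log2 fold change at T1 relative to T0 of the 36 members, ordered by their step in the pathway, in the experimental set (3 horses, each at both times) and the validation set (7 against 13 horses), with the 95% confidence interval of limma as bars and filled points for an adjusted p under 0.05. CPT1A and ACSL4 stand far to the right in both sets, and most genes of the mitochondrial spiral lie to the left of 0.

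The enzymes that activate long-chain fatty acids moved in both directions. ACSL4, an acyl-CoA synthetase that prefers arachidonic acid, stood at 2.09, 2.29 and 2.16 in horses 2, 32 and 41 at T0 and at 5.20, 5.35 and 5.03 at T1. Every horse was higher after the ride, and the groups did not overlap. This was a rise of 8.11-fold (log2 3.02, SE 0.31, adjusted p = 0.0016). Among the validation horses ACSL4 had a lowest, median and highest level of 2.01, 2.33 and 4.58 at T0 and of 4.37, 5.14 and 5.57 at T1. The value of 4.58 was that of horse 47, and the other T0 horses all lay below the lowest T1 horse. The rise was 5.43-fold (log2 2.44, SE 0.26, adjusted p = 2.85e-06), with a log2 value of 2.76 without horse 47. The second probe gave 3.09 in the experimental set and 2.56 in the validation set.

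ACSL1, the main synthetase of fat-burning tissues, rose in the validation set, from -1.44 ± 0.78 (SD, n = 7) to -0.18 ± 0.39 (SD, n = 13), which is 2.4-fold (log2 1.26, SE 0.25, adjusted p = 0.000475). Without horse 47, which stood at 0.22, the change was 1.54. Among geldings only (4 against 10) it was 0.93 and did not pass the test (adjusted p = 0.0641). In the experimental set ACSL1 was 1.67 and 1.73 higher in horses 2 and 32 but 0.35 lower in horse 41, and did not pass the test (adjusted p = 0.164). Its second probe gave 1.23 in the validation set and 1.03 in the experimental set. ACSL3, a synthetase tied to lipid droplets, fell in the validation set by 0.92 on the log2 scale (adjusted p = 0.00377), and by 0.99 without horse 47, and its groups overlapped. ACSL5 did not pass the test in either set (-0.15 in the validation set, with a 95% interval from -0.41 to 0.12), but did in the validation set under quantile normalization (-0.31, adjusted p = 0.0438), and ACSL6 was not well above background on any array.

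The largest change among the tested members was in CPT1A, the enzyme that commits long-chain fatty acids to mitochondrial oxidation. Its level was -3.07, -3.09 and -2.15 in horses 2, 32 and 41 at T0 and 0.42, 0.42 and 0.91 at T1. All 3 horses rose by more than the whole spread among them at either time. The rise was 10.2-fold (log2 3.35, SE 0.32, adjusted p = 0.00119). Its lowest, median and highest levels among the validation horses were -2.63, -2.19 and 0.033 at T0 and -0.0015, 1.16 and 1.49 at T1. Only horse 47 among the T0 horses reached the T1 range, just above the lowest T1 horse. CPT1A rose 8.42-fold there (log2 3.07, SE 0.28, adjusted p = 5.41e-07), and 10.6-fold (log2 3.41) without horse 47. On the 5 scan days that held both times the difference ran from 2.29 to 3.68 for CPT1A and from 2.11 to 2.97 for ACSL4.

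The other genes of the carnitine route moved little or could not be followed. CPT2, which returns the chain to coenzyme A, rose by 0.72 (SE 0.21, adjusted p = 0.00965) in the validation set and by 0.88 without horse 47, but did not pass among geldings only (adjusted p = 0.0777). In the experimental set it was higher in 3 of 3 horses by a mean of 0.73 (adjusted p = 0.159). CRAT, which handles short chains, and the carrier SLC25A20 did not pass the test in either set. SLC25A20 was well above background on 6 of 13 T1 arrays of the validation set. CPT1B, the muscle form of CPT1, was well above background on 8 of the 20 validation arrays and gave -0.69 (adjusted p = 0.158). SLC22A5, the plasma membrane carnitine transporter, was well above background by its brightest probe on 2 T1 arrays of each set and on no T0 array. Its other probes were well above background on 1 and 0 arrays in all.

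**Figure D2:**
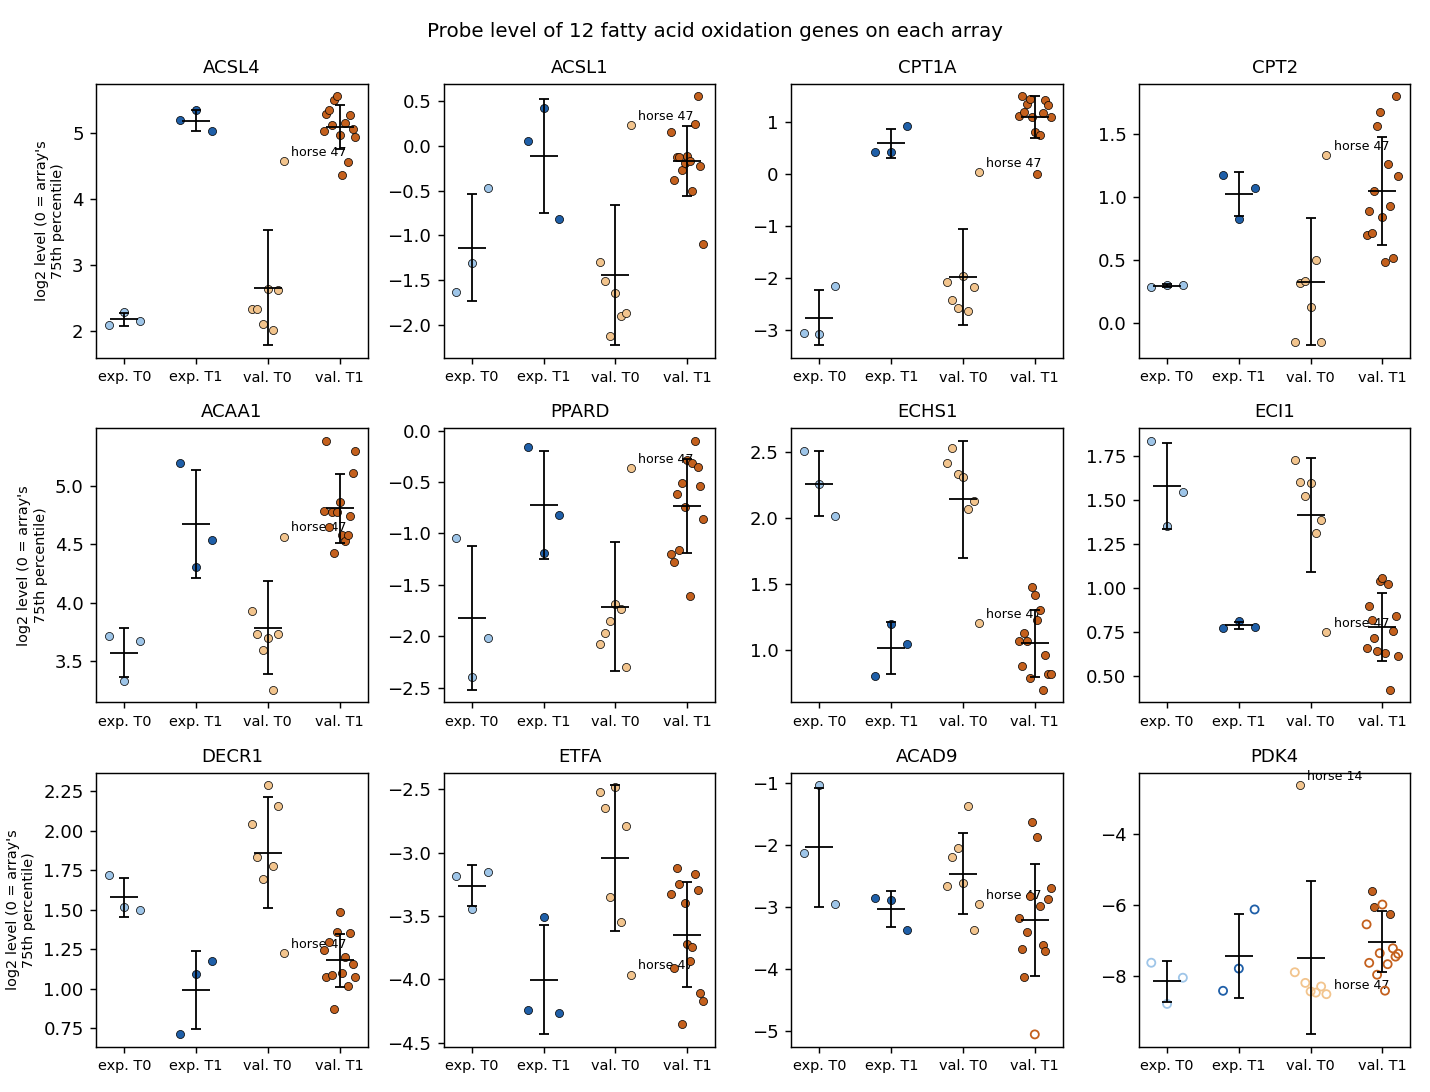
Level of 12 members on each array (log2 signal relative to the 75th percentile of its array, 1 point an array, open where the probe was not well above background), by set and time, with the mean and SD of each group as bars. ACSL4 and CPT1A separate T0 from T1 except for the point of horse 47, ECHS1 and ECI1 do so downward, and PDK4 sits near background with 1 high point, horse 14 at T0.

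In the mitochondrial spiral no member rose in either set. Of the 18 genes 16 had a negative log2 fold change in the experimental set (median -0.43) and 15 in the validation set (median -0.47). ECHS1, the short-chain enoyl-CoA hydratase of the second step, was the member that fell in both sets. It stood at 2.51, 2.26 and 2.01 in horses 2, 32 and 41 at T0 and at 0.81, 1.20 and 1.05 at T1. All 3 horses were lower after the ride and the groups did not overlap, and ECHS1 was 2.36-fold lower (log2 -1.24, SE 0.33, adjusted p = 0.0448). This call was lost when horse 2 or horse 32 was left out. The validation horses had lowest, median and highest levels of 1.21, 2.31 and 2.53 at T0 and 0.70, 1.07 and 1.48 at T1. The T0 value of 1.21 was that of horse 47, and the other T0 horses lay above every T1 horse. ECHS1 fell by 1.09 (SE 0.16, adjusted p = 3.56e-05), was 2.13-fold lower (log2 -1.24 without horse 47), and was lower on each of the 5 scan days that held both times (-1.40 to -0.39).

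ECI1, an isomerase that moves the double bond of unsaturated chains, was at 1.84, 1.35 and 1.54 in horses 2, 32 and 41 at T0 and at 0.77, 0.81 and 0.77 at T1. It was lower in 3 of 3 horses but missed the threshold in the experimental set (-0.79, SE 0.32, adjusted p = 0.134). In the validation set it had a lowest, median and highest level of 0.75, 1.52 and 1.73 at T0 and of 0.42, 0.76 and 1.06 at T1, and fell by 0.64 (SE 0.13, adjusted p = 0.000669). Horse 47 gave the T0 value of 0.75, the other T0 horses did not overlap with T1, and without it the change was -0.75. DECR1, a reductase also needed for unsaturated chains, fell by 0.68 (adjusted p = 0.000373) and likewise overlapped only through horse 47, without which the change was -0.79. ECI2, a second isomerase, did not pass the test in either set.

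Among the acyl-CoA dehydrogenases of the first step, ACADL (long chains) fell by 0.81 and ACADS (short chains) by 0.76 in the validation set (adjusted p = 0.0275 and 0.0112). Both were dim and overlapped widely between the times. Without horse 47 the changes were -0.84 and -0.75. ACADL lost its call when replicate 14, 15 or 29 was left out and with scan day as a term (adjusted p = 0.0805), ACADS lost it among geldings only (adjusted p = 0.221), and both lost it under normexp and quantile normalization. ACAD9, which also serves in complex I assembly, had the largest value of this step in the experimental set: -2.13, -1.03 and -2.95 in horses 2, 32 and 41 at T0 and -2.85, -2.89 and -3.38 at T1. All 3 horses were lower, most of all horse 32, but the change of -1.0 (SE 0.37, adjusted p = 0.111) did not pass the test. ACAD9 of the validation horses ran from -3.38 through a median of -2.61 to -1.38 at T0 and from -5.06 through -3.17 to -1.63 at T1, with wide overlap (-0.74, adjusted p = 0.112, and -0.82, adjusted p = 0.0363, for the mean of its 5 probes). ACADM, the medium-chain enzyme, gave 0.091 with an interval from -0.19 to 0.38. ACADVL, the very-long-chain enzyme, gave 0.011 with an interval from -0.82 to 0.84. ACAD10 did not pass the test (-0.88, adjusted p = 0.0636), but did with scan day as a term (-1.47, adjusted p = 0.00714) and with slide as a random block (-0.95, adjusted p = 0.0318).

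Of the later steps HADHA and HADHB, which form the trifunctional protein, HADH, a short-chain dehydrogenase, and the thiolases ACAA2 and ACAT1 did not pass the test in either set as fitted here. HADH gave -0.59 (adjusted p = 0.0831) in the validation set, and passed with scan day as a term (-1.04, adjusted p = 0.00775) and with slide as a random block (-0.66, adjusted p = 0.038). HADHA gave -0.25 (adjusted p = 0.124) in the validation set, -0.32 (adjusted p = 0.0477) without horse 47 and -0.38 (adjusted p = 0.011) under quantile normalization. Of the electron carriers ETFA was at -3.18, -3.45 and -3.16 in horses 2, 32 and 41 at T0 and at -4.24, -3.51 and -4.26 at T1. It was clearly lower in horses 2 and 41 and nearly level in horse 32 (-0.74, SE 0.35, adjusted p = 0.189). The validation horses ran from -3.96 through -2.79 to -2.48 at T0 and from -4.35 through -3.72 to -3.12 at T1, with overlap, and ETFA fell by 0.60 (SE 0.22, adjusted p = 0.0315). The change was -0.76 without horse 47. It lost its call when replicate 13, 14, 18 or 40 was left out, under quantile normalization, among geldings only, with sex as a term (adjusted p = 0.0519) and with scan day as a term (adjusted p = 0.197). ETFB and ETFDH, its partner subunit and the dehydrogenase that takes up their electrons, did not pass the test, although ETFB passed with scan day as a term (-0.53, adjusted p = 0.0464).

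The peroxisomal members split. ACAA1, the peroxisomal thiolase, stood at 3.71, 3.33 and 3.67 in horses 2, 32 and 41 at T0 and at 5.20, 4.30 and 4.54 at T1. All 3 horses were higher and the groups did not overlap, but the change of 1.11 (SE 0.32, adjusted p = 0.0588) missed the threshold. In the validation set its lowest, median and highest levels were 3.25, 3.73 and 4.56 at T0 and 4.43, 4.77 and 5.39 at T1. Horse 47 was again the T0 horse inside the T1 range, and ACAA1 rose by 1.02 (SE 0.16, adjusted p = 7.52e-05), or 2.03-fold, and by 1.15 without horse 47. HSD17B4, the multifunctional enzyme of the middle steps, fell by 0.56 (adjusted p = 0.00428) and by 0.64 without horse 47, but did not pass among geldings only (adjusted p = 0.0607). ACOX3, an acyl-CoA oxidase, and EHHADH, the other multifunctional enzyme, did not pass the test.

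Of the regulators, PPARD, the most widely expressed PPAR, was at -1.05, -2.40 and -2.02 in horses 2, 32 and 41 at T0 and at -0.16, -1.19 and -0.82 at T1. Each horse was higher after the ride by 0.89 to 1.21, although horse 2 at T0 overlapped with horse 32 at T1, and the mean change was 1.10 (SE 0.31, adjusted p = 0.0561). PPARD of the validation horses ran from -2.30 through -1.85 to -0.37 at T0 and from -1.61 through -0.62 to -0.097 at T1. Horse 47 held the value of -0.37, and the other T0 horses lay below all T1 horses. PPARD rose by 0.97 (SE 0.24, adjusted p = 0.00254), or 1.97-fold, and by 1.20 without horse 47, but did not pass among geldings only (0.90, adjusted p = 0.0751). PPARA, which drives fatty acid oxidation in liver, was lower in 3 of 3 experimental horses and gave -0.46 in the validation set (adjusted p = 0.0962), and -0.57 (adjusted p = 0.0408) without horse 47. PDK4 was read well above background on 0 of 6 experimental arrays, on 1 of 7 T0 arrays and on 3 of 13 T1 arrays of the validation set. Its log2 fold change was 0.45 (adjusted p = 0.599), with horse 14 at -2.61 and the other T0 horses between -8.50 and -7.89.

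None of the 34 members tested in the validation set had T0 and T1 values free of overlap, where 2.07% of all gene names had. Without horse 47 there were 8 such members (ACSL1, ACSL4, CPT1A, ECHS1, ECI1, DECR1, ACAA1 and PPARD), against 12% of all gene names. This horse was left out with its T1-like values in these members known, so the count of 8 is no result about them. With horse 47 left out, 6 members rose and 10 fell, and the 14 calls of all 20 arrays were kept, with HADHA and PPARA added. Of the 32 members tested in both sets 28 had the same sign in both (87.5%), and the share over all gene names was 87.42%. The members called in the same direction in both sets were ACSL4, CPT1A and ECHS1, where 10% of all gene names were so called. No difference between the sets was detected in the 35 members tested for it by limma (0 called at an adjusted p under 0.05, and 0 at an unadjusted p under 0.05). Over all 19403 gene names 0% were called, and 160 had an unadjusted p under 0.05. SLC22A5 entered this fit only through its T1 arrays and has no usable difference. The other differences, validation minus experimental, ran from -0.89 for ACOX3 to 0.45 for ECI2. For CPT1A the difference was -0.28, with a 95% interval from -1.43 to 0.87, so changes that differed by less than that could not be told apart.

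**Figure D3:**
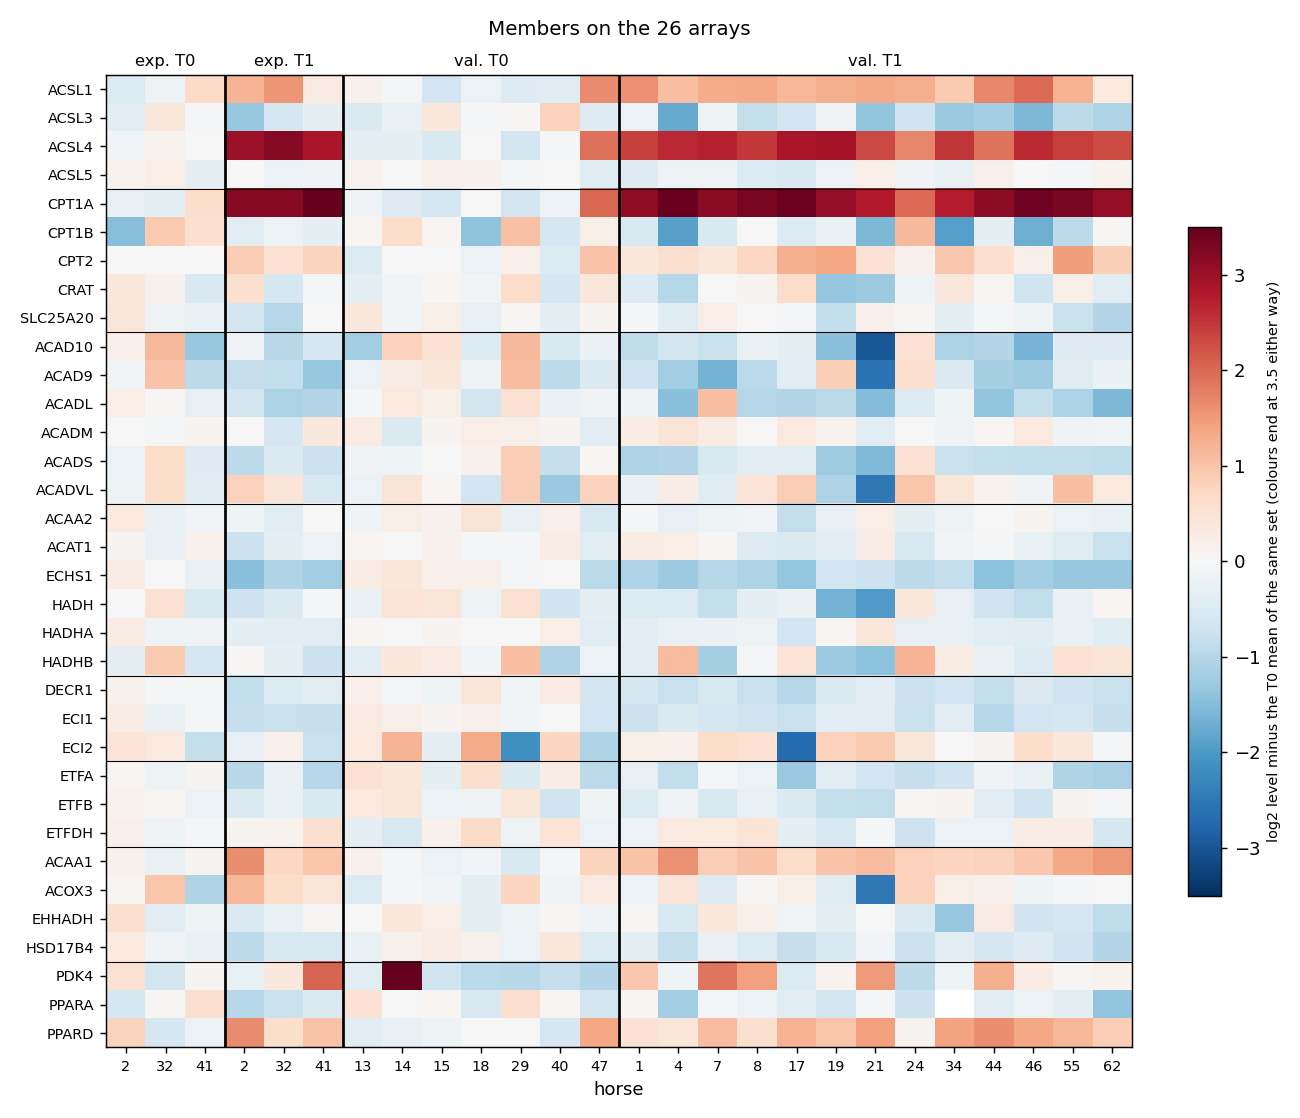
Level of the 34 tested members (rows, ordered by step) on each of the 26 arrays (columns, by set and time), as the difference from the mean T0 level of the same set on the log2 scale. The T1 arrays are red in the rows of ACSL4, CPT1A and ACAA1 and blue in those of ECHS1, ECI1 and DECR1, the T0 array of horse 47 shares that pattern, and the T1 array of horse 21 is blue in ACAD10 and ACOX3.

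The members also varied among themselves within the groups. After the mean of each group was removed, the deviations of ACSL4 and CPT1A over the 26 arrays correlated at r = 0.84 and those of ECHS1 and ECI1 at r = 0.84. These pairs were picked by their values, from the highest of all 561 pairs. Both values include arrays that share preparation and depth of signal. They also include horse 47, whose T0 library lay inside the T1 range for these genes. No value was computed without it, so variation apart from the ride was not isolated. ACADVL, ACAD10, HADH, HADHB and ACOX3, chosen after their values were seen, correlated at r = 0.72 to 0.84 over their 10 pairs, where the median over all 561 pairs of members was -0.041. Horse 21 was the lowest T1 horse in 9 of the 34 members, with ACADVL at -1.13, ACAD10 at -7.47, ACAD9 at -5.06 and ACOX3 at -7.16. If all T1 horses were alike, each would be lowest in 7.69% of the members. Horse 21 was also the highest T1 horse in HADHA (2.71), ACSL5 (3.22), ACAA2, ACAT1, ECI1, ECI2, DECR1 and HSD17B4. Neither count was taken over all gene names. Its array also had the lowest share of probes well above background (60.4%). The spread within groups was wider for the members whose probes spanned more genome than their length (median SD 0.70, 9 members) than for the other placed probes (median SD 0.42, 22 members). The part of the array and of the probe in this shared variation was not tested.

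Other genes of fat metabolism were followed by lists, whose counts are to be read against the shares of all gene names given above (18.8% higher and 22.4% lower in the validation set, 6.38% and 4.18% in the experimental set). Of 30 further oxidation genes tested in the validation set 3 rose and 13 fell, and in the experimental set 0 of 28 rose and 3 fell. Among those SCP2, a peroxisomal thiolase and sterol carrier, fell by 1.32 in the experimental set and by 1.0 in the validation set, and GCDH, glutaryl-CoA dehydrogenase of lysine breakdown, by 1.23 and 1.06. ABCD4 fell by 1.26 in the validation set, and ECHDC2 rose there by 1.07. Of 14 genes of fatty acid supply and lipid droplets 2 rose and 3 fell in the validation set, and 2 of 14 rose and 1 fell in the experimental set. G0S2, an inhibitor of the triglyceride lipase ATGL, rose by 3.33 in the experimental set and by 2.27 in the validation set, and ABHD5, the activator of the same lipase, by 1.20 and 0.92. FABP3, the heart-type fatty acid binding protein, fell by 1.87 and 1.56. LIPA, the lysosomal acid lipase, fell by 1.44 in the validation set.

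Of 12 fatty acid synthesis genes tested in the validation set 1 rose and 6 fell, and of 11 in the experimental set 0 rose and 2 fell. SCD, the stearoyl-CoA desaturase, fell by 2.03 in the experimental set and by 1.52 in the validation set, and ELOVL5, an elongase of polyunsaturated chains, by 1.78 and 1.58. SCD5 fell by 1.55 in the validation set. Of 12 other nuclear receptor genes and targets 1 rose and 1 fell there, and none of 12 passed the test in the experimental set. PPARG, known for adipocyte differentiation, rose by 1.05 in the validation set and gave 1.02 in the experimental set (adjusted p = 0.0732), while NCOR1 and PPARGC1A gave 0.88 and 0.61 and did not pass. Of 12 genes of the pyruvate dehydrogenase complex and its kinases 1 rose and 2 fell in the validation set, and none of 12 passed in the experimental set. PDK3 rose by 1.10, PDHA1, a catalytic subunit, fell by 0.62, and PDK2 gave -0.95 (adjusted p = 0.0698).

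Across the 13 validation horses at T1, members were set against PDK4 and against the mean level of the 14 neutrophil genes, 11 relations in all. ACSL1 was lower where the neutrophil level was higher, with Pearson's r = -0.75 (permutation p = 0.00316, adjusted p = 0.0222) and Spearman's rho = -0.68 (permutation p = 0.0146, adjusted p = 0.0801). SLC25A20 gave r = -0.74 (permutation p = 0.00404, adjusted p = 0.0222) and rho = -0.56 (permutation p = 0.0496, adjusted p = 0.136). It was well above background on only 6 of these 13 arrays. Its lowest values, in horses 62, 19, 55 and 4, were all on arrays where it was not, so this relation rests largely on values near the floor. Without the 2 horses farthest from the median of the member's own level, r fell to -0.51 and -0.48. Without horse 62 no relation passed the test, with r = -0.53 for ACSL1 and -0.59 for SLC25A20 (both adjusted p = 0.209), so both relations rested on that horse. Under quantile normalization SLC25A20 did not pass either (adjusted p = 0.127). CPT1A, which rose together with the neutrophil genes between the times, gave r = 0.10 with them among the T1 horses (permutation p = 0.726, adjusted p = 0.799). The neutrophil level ran only from 3.65 to 5.12 in these horses, against 1.86 to 3.85 at T0. A value within T1 therefore does not bear on the change between the times, whose relation to the neutrophil level was not tested. No relation with PDK4 passed the test as fitted here. Under quantile normalization PDK4 against the neutrophil level did (r = -0.77, permutation p = 0.00228, adjusted p = 0.0157), and without horse 19 so did PDK4 against ACADVL (r = -0.64, permutation p = 0.0123, adjusted p = 0.045). PDK4 was well above background on only 3 of these 13 arrays, so its values have little order. No scan day held enough T1 horses for a value within it.

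**Figure D4:**
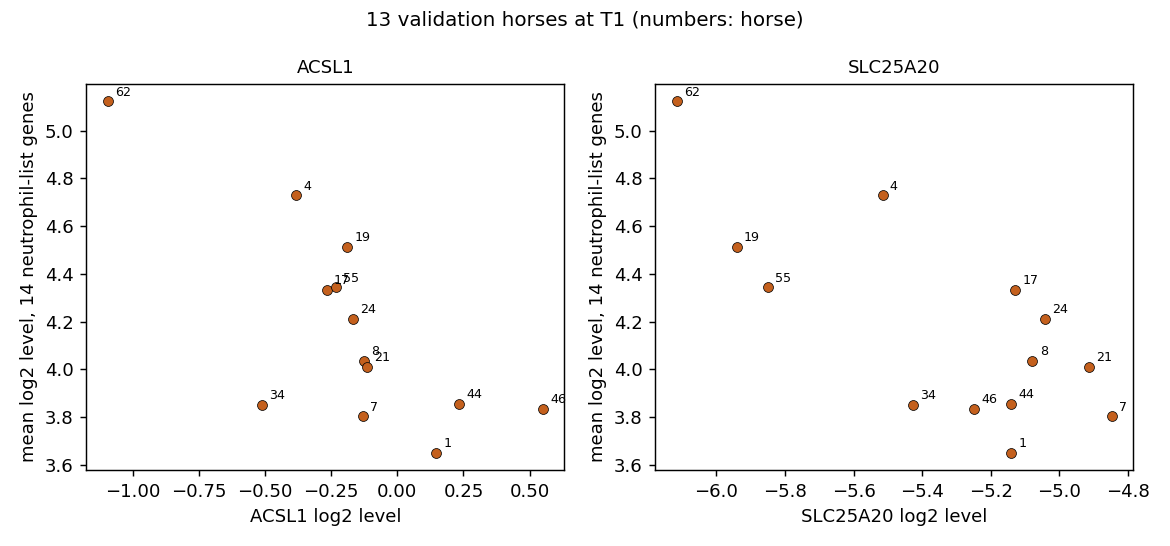
Level of ACSL1 and of SLC25A20 against the mean level of 14 neutrophil genes in the 13 validation horses at T1, each axis as log2 signal relative to the 75th percentile of the array and 1 point a horse. Horse 62 lies at the high end of the neutrophil axis and low in both genes, and without it r moves from -0.75 to -0.53 for ACSL1. SLC25A20 was well above background on 6 of the 13 arrays.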

How the data were processed

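RNA (100 ng) of whole blood was labelled with Cy3 and hybridised to 1-colour arrays, and per the file headers the scans were read with Feature Extraction 10.7.3.1 (protocol GE1_107_Sep09). The deposited scanner files hold a background-corrected, not yet normalized intensity per spot. The series table deposited by the authors holds log2 values with array medians from 7.09 to 7.10. Within each array their order matched that of the scanner signal minus background (Spearman's rho = 1). Whether they were quantile-normalized between arrays was not checked. The labels name limma, without a version, as the authors' tool.

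From the scanner files, log2 of the processed signal minus the 75th percentile of each array was taken. Outlier and control spots were left out, spots of a probe were averaged, and the brightest probe stood for a gene name. Gene names that 3 or more arrays of a set read well above background were tested with limma 3.58.1 (R 4.3.3), with the horse as a block in the experimental set, no block in the validation set and, for the difference between the sets, the 26 arrays together and a random effect of the horse (statmod 1.5.0). Horses 2, 32 and 41 are paired because the labels give the same animal at both times. The deviations of their 2 arrays correlated at -0.0089, 0.21 and 0.19. Relations across horses were tested with permutation tests of 100000 resamples (SciPy 1.17.1). The limma fits within each set were tested on simulated arrays with known changes, and the other steps were not. Each simulation changed 200 gene names, far fewer than were called in the data, and drew no effect of the horse. The adjusted p was therefore harder to pass there, and the shares recovered need not hold for the data. In the experimental set 3.03%, 68.7% and 100% of log2 changes of 1, 2 and 3 were recovered. In the validation set the shares were 62.1%, 94.0% and 100%. False calls made up 7.26% and 4.47% of the simulated calls. A member that did not pass in the experimental set may still have changed by 1, but how often such a change was missed is not known. The arrays came from 18 slides and 8 scan days, of which 5 held both times of the validation set. Precision is limited by how many arrays there were.

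The 36 members, the other gene lists and the tests were chosen with earlier results of these data known. Every member is named. Values of each sample are given for the members called in both sets and for the largest change of each step, and of the other lists the genes called in both sets and the 3 largest changes in the validation set are named. One gene that this rule names is not reported here. Other normalizations, filters and probe rules, blocks, geldings only and leaving out horses were tried. The series table also served only as an alternative. Of the 36 members 26 were found by the array's own gene name and 10 through a RefSeq gene number (a later thoroughbred assembly, used for names only). Sequences and coordinates are those of the array's probes.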

Additional observations from a re-analysis of the deposited data

Results flagged for a closer look

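Among the 7 T0 horses of the validation set, 1 horse stood apart from the rest in 9 of the 34 members examined, by a gap to its nearest neighbour that chance gives in about 1 of 20 groups (5%). In 8 of the 9 that horse was horse 47, so the flags are not independent of each other. The share over all gene names was not computed, so the count is no result about the members as such. The library labelled T0 of horse 47 had a level of 0.22 for ACSL1, 4.58 for ACSL4, 0.033 for CPT1A and -0.37 for PPARD, above the other T0 horses. It had 2.58 for ACSL5, 1.91 for HADHA, 1.21 for ECHS1 and 0.75 for ECI1, below the other T0 horses. The neutrophil, monocyte and erythroid gene levels of this library (3.85, 2.80 and 3.06) were the highest of the T0 horses and its T cell and NK cell levels (-0.057 and -0.28) the lowest. The part of these in the members' values was not tested. In PDK4 the horse apart was horse 14, at -2.61, the one T0 array on which PDK4 was well above background. Without it the T0 level is not measured, so no change is given.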

How the results depend on the processing

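CPT1A and ACSL4 passed the test and kept their direction in both sets under every alternative run. In the experimental set the counts of members called were 2 higher and 1 lower, and moved to 4 higher when a probe had to be well above background on every array, to 2 lower with all 26 arrays in a single fit, under normexp and quantile normalization and with the series values, and to 0 lower with no filter on dim probes. Leaving out 1 horse gave 2 to 3 higher, 0 to 2 lower and a median of -0.46 to -0.22. Without the replicate block 2 members were higher and 1 lower, with a median of -0.35, and the same 3 genes were kept, so the pairing changed no call. With no filter on dim probes only 54 gene names in all were called higher and 11 lower, against 1115 and 731. In the validation set geldings only gave 3 higher and 5 lower, with 8 of the 14 calls kept (ACSL1, PPARD, CPT2, HSD17B4, ACADS and ETFA were lost), and leaving out 1 horse gave 6 to 7 higher, 6 to 10 lower and a median of -0.28 to -0.21. The count of 7 adds PDK4 without horse 14, when no T0 array was well above background for it, and is not read as a call. The median was -0.098 under normexp and quantile normalization, -0.095 on the series values and -0.36 with scan day as a term. Of the lower calls ACADL, ACADS and ETFA were lost under normexp and quantile normalization, and ACADL and ETFA with scan day as a term, which added ACAD10, HADH and ETFB. The number of relations passing was 0 to 3 when 1 horse was left out.

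Signs turned in members that did not pass the test. In the experimental set these were CRAT (0.018) and ACADM (0.094) under normexp and quantile normalization, CRAT (0.061) and ACADM (0.015) under quantile normalization, and ACADM with scan day as a term (0.15) and with the series values (0.099). Leaving out 1 horse gave ACADVL -0.13 to 0.44, EHHADH -0.47 to 0.16, ACSL5 -0.28 to 0.055, CRAT -0.30 to 0.32, ACADM -0.24 to 0.15, ACAD10 -1.20 to 0.21 and HADHB -0.70 to 0.11. In the validation set ACADVL gave -0.013 under normexp and quantile normalization, -0.062 under quantile normalization, -0.0016 with the series values, -0.45 with scan day, -0.071 with slide as a random block, -0.0095 with sex as a term and -0.024 without horse 34. HADHB gave 0.0042 and 0.020, and PDK4 -0.057 under normexp and -0.010 with the series values. Among geldings only ACADM (-0.0088), HADHB (0.61), ECI2 (-0.30) and ACOX3 (0.065) turned, and ECI2 gave -0.028 without horse 47. Leaving out 1 validation horse gave ACADVL -0.21 to 0.22, HADHB -0.25 to 0.10, ECI2 -0.21 to 0.39, ETFDH -0.19 to 0.018 and ACOX3 -0.23 to 0.045. Without horse 47 the difference between the sets was 0.055 for CPT1A and -0.0044 for ECHS1. The correlation of CPT1A with the neutrophil level was -0.051 under quantile normalization and -0.014 to 0.22 with 1 horse left out, that of HADHA then -0.18 to 0.092, and that of PDK4 with CPT1A -0.24 to 0.39. Where a result changed, the cause was not tested. Genes not well above background on most arrays have uncertain levels here.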

Other observations

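SLC22A5, the carnitine transporter of the plasma membrane, was too dim to be tested within either set. The arrays on which its brightest probe was well above background were all at T1: horses 32 (-2.40) and 41 (-4.75) of the experimental set and horses 46 (-5.44) and 62 (-2.20) of the validation set. No T0 array of either set was well above background for this probe, so no difference is given. The other probes of the gene were well above background on 1 and 0 arrays, so the pattern rests on a single probe.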
